A study of Mus musculus with 20 samples.

Results

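The metallothioneins Mt1 and Mt2, their regulator Mtf1 and the zinc transporters Slc39a14 and Slc30a1 were described in macrophages of the cranial dura mater (dCAMs). These 5 genes were chosen by symbol from the 33243 symbols of the count table, and all 5 were among the 16632 genes tested. Mice of the genotype Ccr2creERT2/+ R26tdT/tdT were used in all groups. In these mice, tamoxifen switches on the fluorescent protein tdTomato (tdT) in cells that express the monocyte receptor Ccr2 at that time. Macrophages had been depleted in all mice with the CSF-1R inhibitor BLZ945, given for 7 days at 200 mg per kg, and tamoxifen at 2 mg per day from the last of these days, with repeats 2 and 4 days later. At 8 weeks after depletion, 5 mice were given bacterial lipopolysaccharide (LPS) at 2.5 mg per kg and 5 mice were given PBS (CTL), and the dura was taken 12 h later. Cells in a CD45int CD11b+ CD206int-high gate were sorted from each mouse by tdT, and the resulting 20 libraries form 4 groups of 5. The tdT- cells were those without the label, so that cells that escaped depletion and repopulating cells that were not labelled cannot be told apart in them. The CTL mice carried the numbers 174, 175, 177, 178 and 179, and the LPS mice the numbers 54, 56, 59, 60 and 61.

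Metallothioneins are small, cysteine-rich proteins that bind zinc and copper in the cytosol, and their genes respond to metal ions, glucocorticoids and inflammatory signals. MTF-1, the product of Mtf1, is a zinc-sensing transcription factor that binds metal response elements in the promoters of Mt1, Mt2 and Slc30a1. ZIP14, encoded by Slc39a14, carries zinc, iron and manganese into the cytosol and is known as an acute-phase gene of the liver, whereas ZnT1, encoded by Slc30a1, carries zinc out of the cell.

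In GRCm38 with the GENCODE M21 annotation, Mt1 (ENSMUSG00000031765.8) lies at chr8:94179082-94180327 and Mt2 (ENSMUSG00000031762.7) at chr8:94172664-94173568. Both are on the plus strand and 5513 bases apart. Mtf1 (ENSMUSG00000028890.13) lies at chr4:124802104-124849800 on the plus strand, Slc39a14 (ENSMUSG00000022094.15) at chr14:70303469-70351425 on the minus strand and Slc30a1 (ENSMUSG00000037434.7) at chr1:191906767-191913247 on the plus strand. The methods name 2 builds without saying which one the counts were made on, and these positions serve only to locate the genes. Counting by strand was not stated, so that reads of Mtf1 and of the opposite gene 1110065P20Rik, and reads of Slc30a1 and its antisense gene 1700034H15Rik, cannot be told apart where they overlap. An antisense gene, Gm45774, also overlaps Mt2.

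The coding sequences of Mt1 and Mt2 are shown because the results turn on this pair and on how far its reads can be kept apart. They were taken from GENCODE M21, and capitals mark the codons for cysteine.
Mt1: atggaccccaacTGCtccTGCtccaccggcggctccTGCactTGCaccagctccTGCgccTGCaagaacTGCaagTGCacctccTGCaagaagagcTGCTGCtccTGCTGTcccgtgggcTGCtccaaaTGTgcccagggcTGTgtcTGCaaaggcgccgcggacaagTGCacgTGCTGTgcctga
Mt2: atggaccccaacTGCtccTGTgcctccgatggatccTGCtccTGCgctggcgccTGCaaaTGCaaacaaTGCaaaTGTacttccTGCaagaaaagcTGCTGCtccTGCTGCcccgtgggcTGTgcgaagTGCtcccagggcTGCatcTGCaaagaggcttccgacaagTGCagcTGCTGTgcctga
Each coding sequence held 186 bases with 20 cysteine codons, and all 20 stood at the same positions in both genes. Of the 186 bases, 148 were identical (79.6%). The longest stretch shared without a mismatch by the transcripts that carry these sequences was 20 bases. The handling of reads that match more than 1 place was not given in the sources used here.

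The 250 bases upstream of the RefSeq start in GRCm38.p6 are shown for Mt1 (chr8:94178839-94179088), Mt2 (chr8:94172368-94172617) and Slc30a1 (chr1:191906531-191906780), the members whose promoters are known to carry metal response elements. All 3 lie on the plus strand. Capitals mark the core of this element, TGCACNC or TGCGCNC, read on either strand.
Mt1: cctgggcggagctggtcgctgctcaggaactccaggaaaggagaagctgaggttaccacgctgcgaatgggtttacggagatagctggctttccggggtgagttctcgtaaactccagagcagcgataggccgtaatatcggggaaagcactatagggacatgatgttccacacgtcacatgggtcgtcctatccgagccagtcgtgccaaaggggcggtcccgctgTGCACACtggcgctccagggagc
Mt2: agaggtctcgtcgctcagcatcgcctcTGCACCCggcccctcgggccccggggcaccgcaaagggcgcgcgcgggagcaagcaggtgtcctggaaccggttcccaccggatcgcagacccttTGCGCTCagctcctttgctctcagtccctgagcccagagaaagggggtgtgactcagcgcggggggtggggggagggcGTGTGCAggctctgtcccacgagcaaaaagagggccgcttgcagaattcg
Slc30a1: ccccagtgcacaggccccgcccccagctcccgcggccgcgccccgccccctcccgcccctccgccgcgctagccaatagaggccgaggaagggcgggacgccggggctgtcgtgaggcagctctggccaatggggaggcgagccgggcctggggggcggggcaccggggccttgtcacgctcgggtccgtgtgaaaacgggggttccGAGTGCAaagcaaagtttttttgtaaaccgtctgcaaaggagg
The search covered 300 bases per gene, that is the 250 bases shown and 50 bases after the start. Over this window Mt2 held 4 matches, Mt1 held 3, Slc30a1 held 2 and Mtf1 held 0. Of the matches of Mt1, 1 lay before the start and 2 after it, whereas Mt2 had 3 before the start and 1 after it, and Slc30a1 had 1 on either side. Among all 32851 windows of this length, 25.7% held at least 1 match, 6.14% at least 2, 1.31% at least 3 and 0.295% at least 4. A window was given for 4 of the 5 genes, and Slc39a14 was without one. GENCODE M21 lists further Mt1 transcripts that begin 129 and 159 bases after its first start, and a further Mt2 transcript 196 bases after its first start. The bases shown for Mt2 end at 94172617, before the first GENCODE start at 94172664. These windows thus do not cover every start.

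Library totals ranged from 6017650 to 12208203 counts in the CTL and from 12073566 to 18925908 counts in the LPS libraries. The number of genes above 3 counts ran from 7376 to 9807 (tdT-) and from 10390 to 11572 (tdT+) in CTL mice, and from 11682 to 12694 (tdT-) and from 12098 to 13118 (tdT+) in LPS mice. All 12 macrophage markers, among them Mrc1, Csf1r and C1qa, were above 3 counts in every library. The summed level of 10 neutrophil markers ran from 53.3 to 176 CPM in the CTL libraries and from 278 to 883 CPM in the LPS libraries. Of the 8 of them that were tested, Csf3r and Mmp8 rose with LPS in tdT- and Mmp8 in tdT+ dCAMs. Mmp8, a collagenase, went from a mean of 0.0491 to 98.0 CPM in tdT- and from 0.0802 to 103 CPM in tdT+ libraries, whereas the granule genes Elane and Mpo were at most 0.123 and 0.903 CPM in the CTL and at 0 in the LPS libraries. The sum of 7 fibroblast markers reached 4682 CPM in tdT- CTL mouse 179 and 1126 CPM in tdT- CTL mouse 175, and it ran from 10.9 to 416 CPM in the other 18 libraries. The sum of 4 erythroid markers reached 765 CPM in tdT- CTL mouse 178 and 416 CPM in tdT- CTL mouse 179. It was at most 33.9 CPM in the other 18 libraries. The part of any of these in the results was not tested. In bulk samples, fewer cells of a type and less RNA per cell cannot be told apart.

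LPS raised Mt1, Mt2 and Slc39a14 in both dCAM populations, whereas Mtf1 and Slc30a1 did not pass the test in either. Mt1 was at or above 316 CPM in all 20 libraries, Mt2 reached 403 CPM or more in all 10 LPS libraries, and Slc39a14 went from at most 25.8 CPM to 132 CPM or more. The unit of level is CPM, or counts per 1e+06 counts of a library scaled by TMM. A gene passed with a Benjamini-Hochberg adjusted p under 0.05 in edgeR and an absolute log2 fold change over 1. In tdT- dCAMs 3 of the 5 genes rose with LPS and 0 fell, against 7.20% of all tested genes that rose and 4.27% that fell. In tdT+ dCAMs 3 of the 5 rose and 0 fell, against 3.37% of all tested genes that rose and 2.52% that fell.

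Mt1, the metallothionein with the higher level, was detected at 335, 572, 1090, 1215 and 335 CPM in the tdT- CTL libraries of mice 174, 175, 177, 178 and 179. In the tdT+ CTL libraries of the same mice the values were 316, 447, 647, 805 and 482 CPM. Mice 177 and 178 had the highest Mt1 in both populations. After LPS, the tdT- libraries of mice 54, 56, 59, 60 and 61 were at 1986, 2282, 2150, 1901 and 2510 CPM. The corresponding tdT+ libraries reached 2572, 2559, 2764, 1980 and 2584 CPM. In tdT- and tdT+ dCAMs, 9.32% and 10.6% of all tested genes had every LPS library above every CTL library. For Mt1 the lowest LPS library was above the highest CTL library in both populations. The log2 fold change was 1.61 ± 0.31 (SE) in tdT- dCAMs, a 3.05-fold rise (edgeR, adjusted p = 0.00124). In tdT+ dCAMs it was 2.21 ± 0.32, a 4.62-fold rise (edgeR, adjusted p = 6.60e-05).

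Mt2, the neighbour of Mt1 on chromosome 8, was low in the CTL groups. Its levels were 22.0, 26.0, 32.2, 70.7 and 35.9 CPM in tdT- CTL and 2.76, 12.1, 22.3, 40.2 and 11.3 CPM in tdT+ CTL libraries, in the order of the mice given above. Mouse 178 was the highest and mouse 174 the lowest in both populations, and the lowest library, tdT+ CTL mouse 174, rested on 17 counts. After LPS, Mt2 reached 404, 533, 413, 403 and 561 CPM in the tdT- libraries. The tdT+ LPS libraries were at 545, 505, 568, 447 and 545 CPM. Every LPS library was thus above every CTL library, a separation seen within a population for 9.32% (tdT-) and 10.6% (tdT+) of all tested genes. The rise was 12.4-fold in tdT- dCAMs, with a log2 fold change of 3.63 ± 0.48 (edgeR, adjusted p = 2.40e-05). It was 29.4-fold in tdT+ dCAMs, with a log2 fold change of 4.88 ± 0.51 (edgeR, adjusted p = 1.07e-06).

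**Figure D1:**
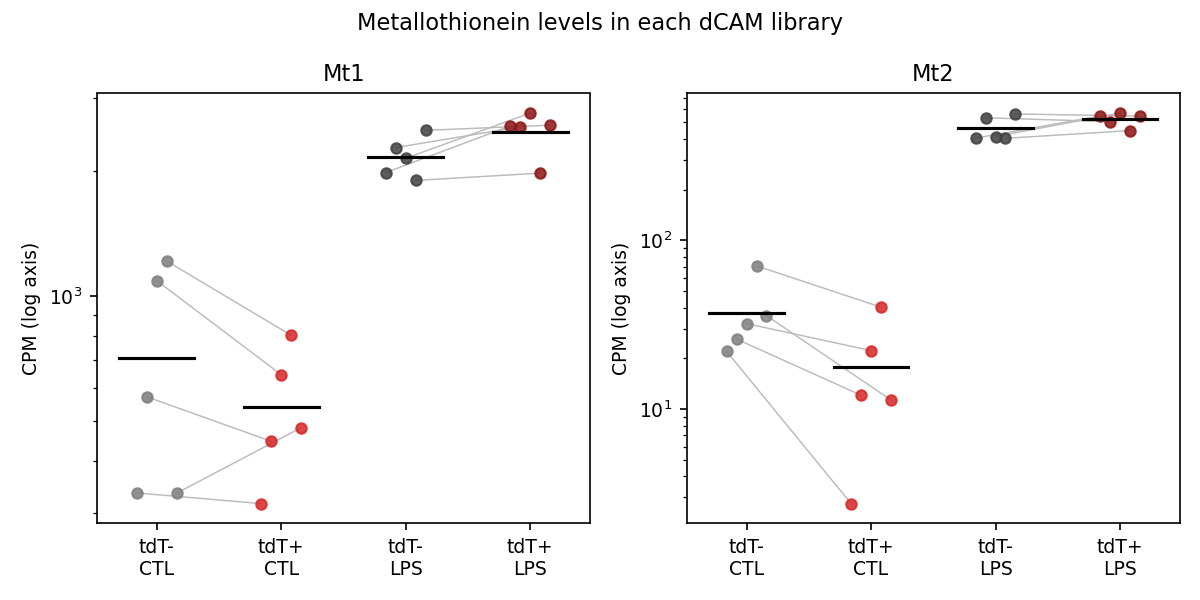
Level of Mt1 (left) and Mt2 (right) in CPM on a log axis in the 4 groups, with 1 point per library, a black line at the mean of 5 libraries and grey lines joining both libraries of the same mouse. All 10 LPS libraries lie above all 10 CTL libraries for both genes, and in the CTL mice Mt2 is lower in the tdT+ than in the tdT- library of each mouse.

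The metallothioneins did not rise in proportion. The number of Mt1 counts per Mt2 count was 15.2, 22.0, 33.9, 17.2 and 9.35 in the tdT- CTL libraries. In the tdT+ CTL libraries it was 115, 36.9, 29.1, 20.003 and 42.5. After LPS the ratio ran from 4.28 to 5.21 in tdT- and from 4.43 to 5.06 in tdT+ libraries. The ratio of each LPS library was therefore below that of each CTL library, and the spread narrowed from an SD of 9.21 (mean 19.5, n = 5) to 0.365 (mean 4.72, n = 5) in tdT- dCAMs. In tdT+ dCAMs the mean was 48.6 ± 37.8 (SD, n = 5) in CTL and 4.76 ± 0.233 (SD, n = 5) in LPS mice. The ratios follow from the counts tested above and were not tested separately. Together, Mt1 and Mt2 took 0.0729% ± 0.0387 (SD, n = 5) of all counts in tdT- CTL and 0.261% ± 0.0251 (SD, n = 5) in tdT- LPS libraries. The share was 0.0577% ± 0.0207 (SD, n = 5) in tdT+ CTL and 0.293% ± 0.0304 (SD, n = 5) in tdT+ LPS libraries.

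**Figure D2:**
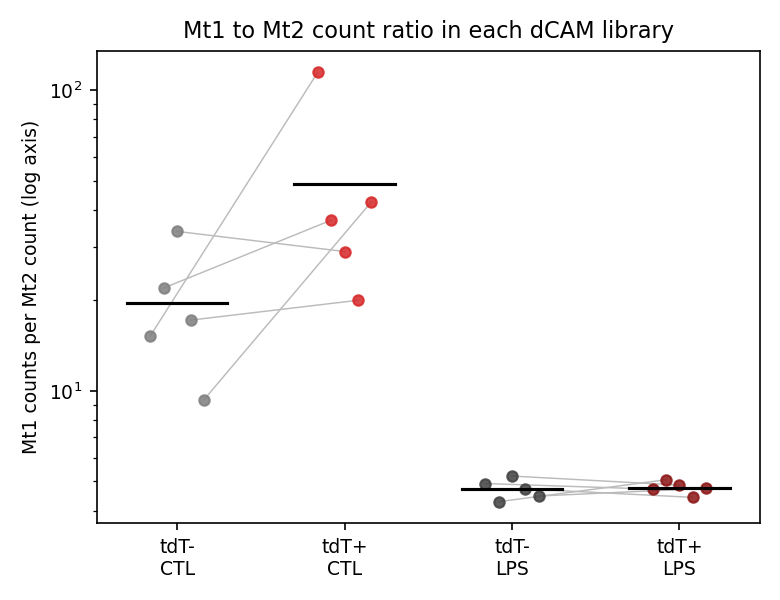
Number of Mt1 counts per Mt2 count on a log axis, with 1 point per library, a black line at the mean of 5 libraries and grey lines joining the libraries of a mouse. The LPS libraries lie between 4.28 and 5.21 and the CTL libraries between 9.35 and 115.

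Of the other metallothioneins, Mt3, which is best known from the brain, was at 0 in all 5 tdT- CTL libraries and reached 3.72, 3.66, 2.77, 1.89 and 4.80 CPM in tdT- LPS libraries. It passed the test in tdT- dCAMs (edgeR, adjusted p = 0.00586), and its mean was at least 8.93-fold higher than the level that 3 counts per library would give in the CTL group. In tdT+ dCAMs 1 CTL library, mouse 178, held 11 counts and the other 4 were at 0, against 2.58 to 8.14 CPM after LPS. The log2 fold change of 4.42 ± 1.47 did not pass there (edgeR, adjusted p = 0.0954), but Mt3 passed there in DESeq2 (adjusted p = 0.000346) and in limma-voom with quality weights (adjusted p = 4.66e-06). The longest stretch that its transcript shares with that of Mt1 is 27 bases. Mt4, known from stratified epithelium, stayed at or below 2.89 CPM and passed in neither population in edgeR. Limma-voom called it in tdT+ dCAMs, with a log2 fold change of 3.17 with quality weights (adjusted p = 0.0271) and 3.19 without (adjusted p = 0.0488).

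Mtf1, which encodes the zinc sensor, was detected at 35.4, 36.1, 26.5, 31.2 and 33.8 CPM in tdT- LPS and at 26.8, 34.2, 27.8, 31.9 and 39.5 CPM in tdT+ LPS libraries. In the tdT+ CTL libraries it was at 32.3, 27.4, 30.6, 10.2 and 15.9 CPM. The tdT- CTL libraries were split, with 38.2, 37.4 and 14.5 CPM in mice 174, 175 and 177 but 2 counts in mouse 178 and 3 counts in mouse 179, that is 0.226 and 0.393 CPM. The groups overlapped in both populations. The log2 fold change with LPS was 0.84 ± 0.84 in tdT- dCAMs, with a 95% interval from -0.91 to 2.60 (edgeR, adjusted p = 0.538). In tdT+ dCAMs it was 0.46 ± 0.84, from -1.28 to 2.21 (edgeR, adjusted p = 0.887). In limma-voom without quality weights the difference in tdT- dCAMs passed, at a log2 fold change of 2.74 both without a replicate block (adjusted p = 0.0314) and with mouse as a block (adjusted p = 0.0303), whereas with quality weights it was 2.43 (adjusted p = 0.127).

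Slc39a14, the importer ZIP14, was the member with the largest fitted change in tdT- dCAMs. It had 0, 0, 1, 82 and 6 counts in the tdT- CTL libraries, so that 3 of 5 were at or under 3 counts and mouse 178 alone reached 9.26 CPM. The tdT+ CTL libraries were at 25.8, 2.02, 4.84, 22.6 and 0 CPM. After LPS the tdT- libraries held 215, 158, 283, 132 and 299 CPM, and the tdT+ libraries 236, 263, 309, 237 and 307 CPM. Within a population, 9.32% (tdT-) and 10.6% (tdT+) of all tested genes had every LPS library above every CTL library. The lowest LPS library of Slc39a14, at 132 CPM, was above its highest CTL library, at 25.8 CPM. The log2 fold change was 6.72 ± 1.37 in tdT- dCAMs (edgeR, adjusted p = 0.00206), and it was 9.87 without CTL mouse 178. In tdT+ dCAMs it was 4.62 ± 1.23 (edgeR, adjusted p = 0.0238). That call was lost when any one of CTL mouse 177 or LPS mice 56, 59, 60 and 61 was left out, with adjusted p-values from 0.0501 to 0.0614 and log2 fold changes from 4.43 to 4.66. In limma-voom without quality weights the log2 fold change in tdT+ dCAMs was 6.58, with mouse as a replicate block (adjusted p = 0.00120) or without it (adjusted p = 0.00123).

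Slc30a1, the exporter ZnT1, stayed low. The tdT- LPS libraries held 7.58, 11.2, 13.2, 6.64 and 3.01 CPM and the tdT+ LPS libraries 9.89, 10.8, 5.92, 14.2 and 9.02 CPM. In tdT+ CTL the values were 16.9, 7.96, 16.6, 12.3 and 18.7 CPM. The tdT- CTL libraries had 0, 85, 168, 1 and 5 counts, which is 0, 9.33, 20.6, 0.113 and 0.654 CPM. LPS and CTL libraries overlapped in both populations. The log2 fold change was 0.44 ± 1.05 in tdT- dCAMs, with a 95% interval from -1.75 to 2.62 (edgeR, adjusted p = 0.832). In tdT+ dCAMs it was -0.54 ± 1.05, from -2.73 to 1.65 (edgeR, adjusted p = 0.902).

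**Figure D3:**
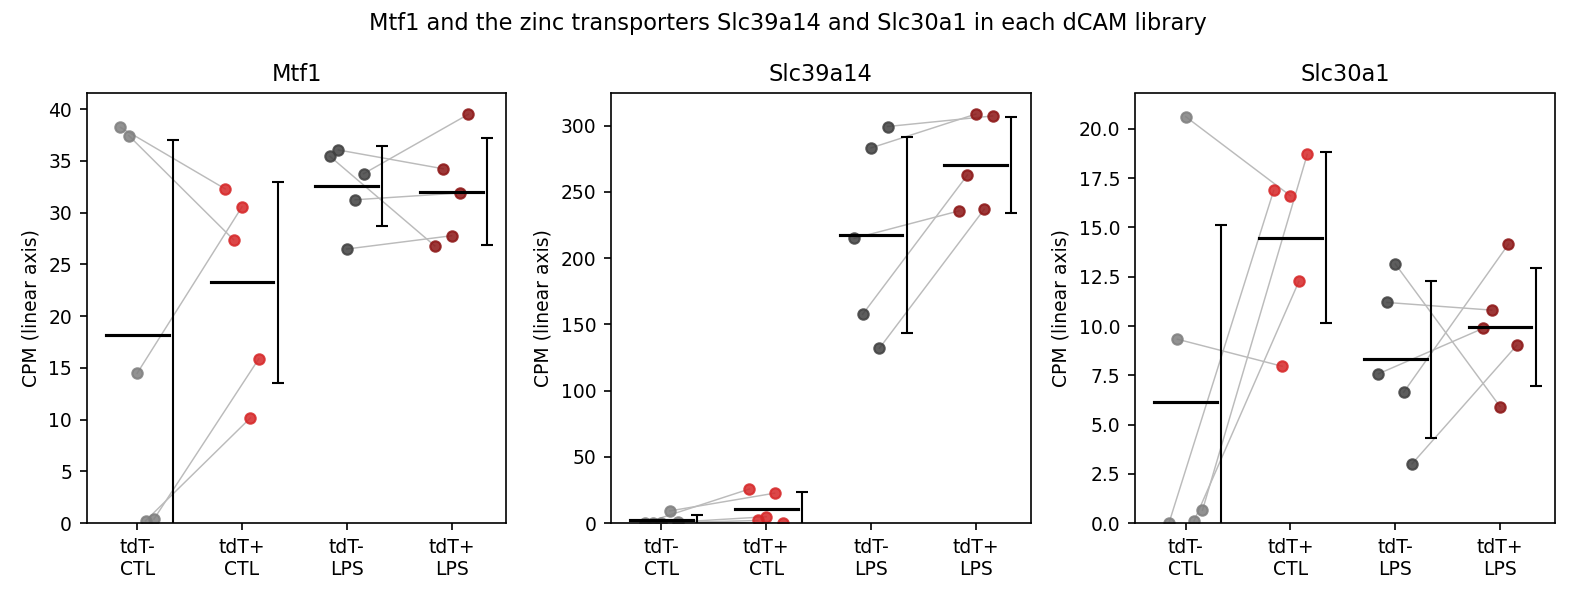
Level of Mtf1, Slc39a14 and Slc30a1 in CPM on linear axes that start at 0, with 1 point per library, a black line at the mean and bars of 1 SD (n = 5; bars are cut at 0). Slc39a14 is at or below 25.8 CPM in all CTL libraries and at or above 132 CPM in all LPS libraries, whereas the groups overlap for Mtf1 and Slc30a1.

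Compared per length of exon, Mt1 was highest in every group. Its mean level was 569 CPM per kb for tdT- and 433 for tdT+ libraries of CTL mice, and 1738 and 2000 CPM per kb for those of LPS mice. Mt2 was next in all groups, at 63.5, 30.2, 787 and 888 CPM per kb in the same order. The exons of all transcripts of a gene were joined for the length. This gave Mt1 1246 bases, which is its whole gene span, and Mt2 588 bases, so that these lengths depend on the transcripts listed. In LPS libraries Slc39a14 followed with means of 20.6 and 25.6 CPM per kb, then Mtf1 with 3.66 and 3.60 and Slc30a1 with 1.59 and 1.90 CPM per kb. The ranges of these neighbours did not overlap in either LPS group. In CTL libraries the means of Mtf1 (2.04 and 2.61 CPM per kb), Slc30a1 (1.17 and 2.76) and Slc39a14 (0.193 and 1.05) lay within overlapping ranges, so that they were not ordered.

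The tdT+ and tdT- populations were then compared within each treatment, the question being whether cells with and without the Ccr2-dependent label differed in these genes. In CTL mice 0 of the 5 genes passed, against 4.28% of all tested genes in either direction. Of the 5, Mt2 and Slc39a14 had an unadjusted edgeR p under 0.05, as had 3914 of all 16632 tested genes. In DESeq2 and in limma-voom with quality weights 0 of the 5 passed. Mt2 was lower in the tdT+ library than in the tdT- library in 5 of 5 CTL mice, with log2 differences from -2.92 to -0.53. The fitted log2 difference was -1.07 ± 0.44 (edgeR, adjusted p = 0.155) and did not pass. The share of all tested genes with the same sign in 5 of 5 mice was not counted. Mt1 was lower in 4 of 5 CTL mice, with a fitted difference of -0.40 ± 0.30 (edgeR, adjusted p = 0.485). Slc39a14 was higher in tdT+ in 4 of 5 CTL mice, with a difference of 2.41 ± 1.14 (edgeR, adjusted p = 0.206), and without CTL mouse 178 it passed at 5.11 (edgeR, adjusted p = 0.0201). Mtf1 and Slc30a1 were each higher in tdT+ in 3 of 5 CTL mice and differed by 0.36 ± 0.84 and 1.23 ± 1.06. Slc30a1 passed in limma-voom without quality weights, at a log2 difference of 3.65 with mouse as a replicate block (adjusted p = 0.0275) or without it (adjusted p = 0.0315), in a group whose tdT- libraries include 3 with 0, 1 and 5 counts of this gene.

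In LPS mice 0 of the 5 genes passed between the populations, against 0.0301% of all tested genes. In edgeR 0 had an unadjusted p under 0.05, beside 899 of all 16632 tested genes. Such a p was found for 1 of the 5 in limma-voom with quality weights and for 2 without them. For these fits the share of all tested genes was not counted. In DESeq2 and in limma-voom with or without quality weights 0 passed. Mt1 was higher in tdT+ in 5 of 5 mice, but by only 0.04 to 0.37 on the log2 scale, and Slc39a14 was higher in 5 of 5 mice by 0.04 to 0.84. Here too, the share of all tested genes with the same sign in 5 of 5 mice was not counted. The fitted differences were 0.20 ± 0.30 for Mt1, with a 95% interval from -0.43 to 0.83, and 0.31 ± 1.05 for Slc39a14, from -1.88 to 2.51 (edgeR, adjusted p = 1 for both). Mt2 was higher in tdT+ in 3 of 5 mice and differed by 0.17 ± 0.43, with an interval from -0.72 to 1.07. The differences for Mtf1 and Slc30a1 were -0.02 ± 0.84 and 0.26 ± 1.05.

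The LPS effects of the populations were tested against each other by the difference between them. Here 0 of the 5 genes passed, against 1.26% of all tested genes. In edgeR 0 had an unadjusted p under 0.05 here, beside 2181 of all 16632 tested genes. DESeq2 and limma-voom, with or without quality weights, likewise called 0. In limma-voom without the weights 1 of the 5 had an unadjusted p under 0.05, and the share of all tested genes in that fit was not counted. The effect on Mt2 was larger in tdT+ dCAMs by 1.25 ± 0.61 on the log2 scale, with an interval from -0.03 to 2.53 (edgeR, adjusted p = 0.398). For Mt1 the effect was larger in tdT+ dCAMs by 0.60 ± 0.43 (edgeR, adjusted p = 0.682). For Slc39a14 the difference was -2.10 ± 1.53 (edgeR, adjusted p = 0.698), and for Mtf1 and Slc30a1 it was -0.38 ± 1.18 and -0.98 ± 1.49.

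**Figure D4:**
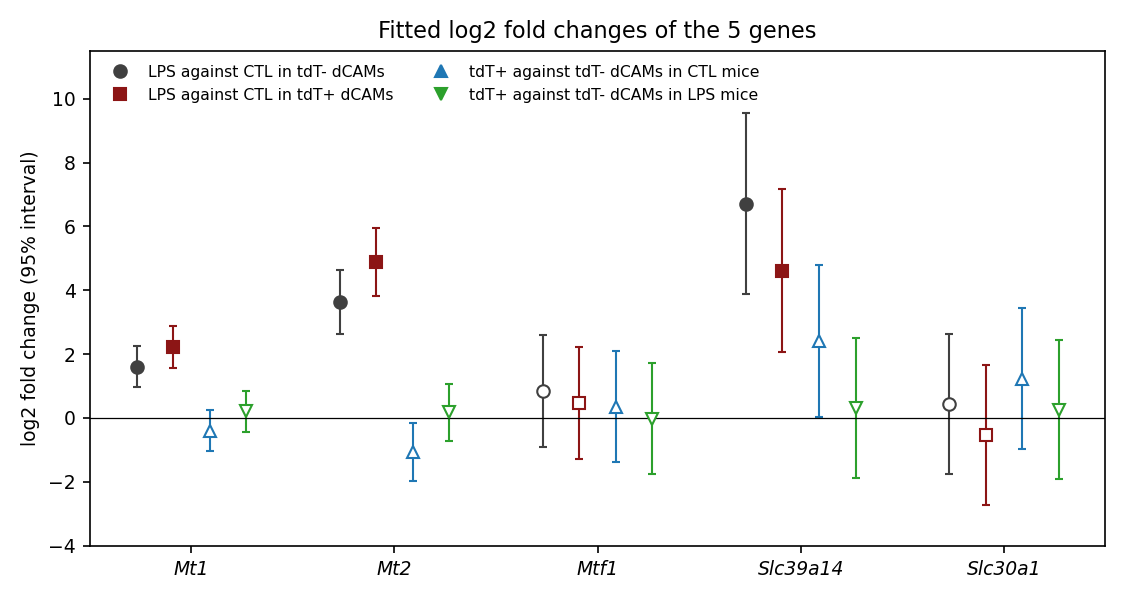
Fitted log2 fold change of the 5 genes with approximate 95% intervals derived from the edgeR test in 4 comparisons, with filled symbols for those that passed the threshold. The LPS contrasts of Mt1, Mt2 and Slc39a14 are filled in both populations, and all comparisons between tdT+ and tdT- dCAMs are open.

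The other members of the zinc families were counted from lists of symbols. Of 14 ZIP importers, all tested, 2 rose and 1 fell with LPS in tdT- dCAMs, where 7.20% of all tested genes rose and 4.27% fell. In tdT+ dCAMs 1 rose and 0 fell, against 3.37% and 2.52% of all tested genes. In limma-voom without quality weights 6 rose and 1 fell in tdT- dCAMs. That fit called 4532 of all 16632 tested genes there in either direction, against 1907 in edgeR. In edgeR the riser in both populations was Slc39a14. Slc39a8, which encodes the importer ZIP8, was at or under 3 counts in all tdT- CTL libraries and at 2.79 to 9.11 CPM in tdT- LPS libraries, a mean at least 15.0-fold higher than the 3-count level (edgeR, adjusted p = 0.00725). In tdT+ dCAMs it ran from 0 to 12.7 CPM in CTL and from 2.79 to 12.0 CPM in LPS mice. Slc39a8 was also the only listed zinc gene that passed in edgeR between the populations in CTL mice, where its mean in tdT+ was at least 21.0-fold above that level (edgeR, adjusted p = 0.0109), although the groups overlapped. This call was lost in limma-voom with quality weights, where 0 of the 14 importers passed, and 3 passed without the weights. Slc39a11, which encodes the importer ZIP11, fell by 1.91 ± 0.51 on the log2 scale in tdT- dCAMs, from 76.5 ± 35.7 to 20.4 ± 7.05 CPM (SD, n = 5; edgeR, adjusted p = 0.0160). Its log2 fold change in tdT+ dCAMs was -1.13 ± 0.50 (edgeR, adjusted p = 0.210). Of 10 ZnT exporters 8 were tested, Slc30a1 among them, and 0 passed in any of the 5 comparisons with edgeR, DESeq2 or limma-voom with quality weights. In limma-voom without the weights 2 rose and 1 fell with LPS in tdT- dCAMs and 2 were higher in tdT+ dCAMs of CTL mice. Over all tested genes that fit also called more than edgeR in both of these comparisons. At an unadjusted edgeR p under 0.05 there were 3 and 1 of the 8 for LPS in tdT- and tdT+ dCAMs, 4 between the populations in CTL mice and 0 in the other comparisons. Of all 16632 tested genes, 5015 and 3264 for LPS in tdT- and tdT+ dCAMs and 3914 between the populations in CTL mice had such a p. The median log2 fold change with LPS over the 14 importers was 1.12 in tdT- and 0.31 in tdT+ dCAMs, and over the 8 exporters it was -0.26 and 0.15, beside 0.02 and 0.01 over all tested genes.

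Genes of copper handling were counted because metallothioneins also bind copper. Of 9 listed genes 8 were tested, and with LPS 2 rose and 1 fell in tdT- dCAMs and 2 rose and 0 fell in tdT+ dCAMs, beside 7.20% and 4.27% of all tested genes in tdT- and 3.37% and 2.52% in tdT+ dCAMs. Their median log2 fold change was 0.06 and 0.34. Slc31a2, which encodes the copper transporter CTR2, rose from 139 ± 58.0 to 643 ± 125 CPM in tdT- dCAMs, a log2 fold change of 2.21 ± 0.27 (edgeR, adjusted p = 1.20e-05). In tdT+ dCAMs it rose from 133 ± 29.2 to 741 ± 111 CPM, a log2 fold change of 2.48 ± 0.28 (edgeR, adjusted p = 2.62e-06). Slc31a1, which encodes the copper importer CTR1, rose by 1.82 ± 0.52 in tdT- and 1.90 ± 0.52 in tdT+ dCAMs on the log2 scale, and the call in tdT- dCAMs was lost in limma-voom with quality weights. Sod1, the copper and zinc superoxide dismutase, fell from 61.8 ± 31.3 to 16.6 ± 3.54 CPM in tdT- dCAMs (edgeR, adjusted p = 0.00594). Cox17, a copper chaperone of cytochrome oxidase, was lower in tdT+ than in tdT- dCAMs of CTL mice, with a log2 difference of -1.15 ± 0.32 (edgeR, adjusted p = 0.0394), a call that was lost in limma-voom with and without quality weights.

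Glucocorticoid-responsive genes were counted because metallothioneins share this response. Of 8 genes tested, 2 rose in tdT- dCAMs and 1 rose in tdT+ dCAMs with LPS, and 0 fell, where 7.20% and 3.37% of all tested genes rose. The order of the populations depended on the tool, with 3 and 3 genes that rose in DESeq2 and 2 and 4 in limma-voom with quality weights. The shares of all tested genes given here are those of edgeR. The median log2 fold change of the 8 was 0.45 and 0.94. Fkbp5, which encodes a co-chaperone of the glucocorticoid receptor, rose from 61.8 ± 78.1 to 606 ± 65.2 CPM in tdT- dCAMs (log2 fold change 3.29 ± 0.88), and its change of 2.03 ± 0.84 in tdT+ dCAMs did not pass (edgeR, adjusted p = 0.0163 and 0.179). In limma-voom with quality weights Fkbp5 passed in tdT+ dCAMs as well (adjusted p = 1.58e-06). Zbtb16 passed in tdT- dCAMs at 4.57 ± 1.39 on the log2 scale, and in DESeq2 it passed in tdT+ dCAMs too (adjusted p = 0.0248). Sgk1 passed in tdT+ dCAMs at 1.18 ± 0.28. Tsc22d3, which encodes GILZ, had log2 fold changes of -0.01 ± 0.19 and 0.05 ± 0.19. Of the zinc-binding S100 genes, S100a8 rose in both populations, by 5.17 ± 1.14 and 7.14 ± 1.25, from at most 29.1 CPM to 99.98 CPM or more, and the call in tdT- dCAMs was lost in limma-voom with quality weights. S100a9, whose product pairs with that of S100a8, ran from 0.115 to 15.1 CPM in CTL and from 0 to 2.18 CPM in LPS libraries. It passed in neither population in edgeR, but in DESeq2 it was called lower with LPS in tdT+ dCAMs (log2 fold change -4.27, adjusted p = 0.0120). Both S100 genes are also abundant in neutrophils, whose summed markers were higher with LPS as given above. Of the 8 neutrophil markers tested, 2 rose and 0 fell in tdT- dCAMs in edgeR, and 3 rose and 2 fell in limma-voom without quality weights. In tdT+ dCAMs 1 and 3 rose in these fits, and 0 fell. A part of neutrophils in these values was not tested.

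Across the 20 libraries the log2 CPM of Mt1 and Mt2 had a Pearson r of 0.945, and 0.686 after subtraction of the 4 group means. Slc39a14 followed both in level (r = 0.827 with Mt1 and 0.800 with Mt2), but with the group means removed r was 0.301 and 0.235. Mtf1 had an r of 0.276 with Mt1 and 0.215 with Mt2 in level, and of -0.238 and -0.458 in deviations. These values share the libraries and their depth and are given as a description. Genes were ranked by r where their log2 CPM averaged 4 or more. Among the 5821 genes ranked, the pattern most like the mean of Mt1 and Mt2 in level was that of Cstb, which encodes the protease inhibitor cystatin B (r = 0.974, 20 libraries). Nfil3, Tpm4, Cxcl2 and Capza2 followed with r from 0.951 to 0.956. With the group means removed, the chemokine gene Cxcl2 came first (r = 0.952), and it was followed by Ccrl2 (r = 0.892), Hspd1, Gadd45g and Ifrd1 (r from 0.833 to 0.851). Cxcl2 ran from 302 to 2240 CPM over the CTL libraries and from 3183 to 5170 CPM over the LPS libraries.

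The patterns of the remaining members were set against other genes in the same way. For Slc39a14 the nearest in level were Vav1 (r = 0.943), Mocs1, Pla2g7, Slc16a3 and Ptpn1, the last with r = 0.918, and in deviations Rfc2 (r = 0.832), Slc16a3, Dhx36, Lamtor5 and Chd2. For Slc30a1 they were Marchf8 (r = 0.956), Fbxo38, Hadh, Rgmb and Gcc1 in level and Marchf8 (r = 0.941), Fbxo38, Mkln1, Vps8 and Gcc1 in deviations. For Mtf1 they were Ormdl2 (r = 0.971), Sh3tc1, Pef1, Map2k4 and Slc7a7 in level, and Ormdl2 (r = 0.962), Siglec1, Sh3tc1, Exoc2 and Qpctl in deviations. Like Mtf1 and Slc30a1, the first of these genes were low in some tdT- CTL libraries, with Ormdl2 from 0 to 26.9 CPM and Marchf8 from 1.37 to 159 CPM in that group.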

How the data were processed

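RNA of sorted dCAMs was sequenced in 20 libraries. The authors deposited unscaled counts per gene, made with STAR 2.7.11a and featureCounts 2.0.6 (versions per the submitters' processing notes). Libraries came from a low-input kit with PCR and without molecular identifiers, so floors cover counting error only, and the floor of a library was set at 3 counts. The genome build and the handling of strand and of reads with several matches were not given in the sources used here.

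The labels gave the groups. Of 33243 genes, 16632 had a total of at least 10 counts and were tested. After TMM scaling, all 4 groups entered 1 model in the quasi-likelihood test of edgeR 4.0.16 in R 4.3.3, without covariates, for 5 contrasts, with adjustment over all 16632 genes. DESeq2 1.42.0 and limma 3.58.1 were used in alternatives, of which limma-voom without quality weights was added after seeing the data, and the pipeline was tested on simulated data. Replicates were separate mice. The mouse number pairs the tdT+ and tdT- libraries, since both were sorted from the same animal, and the deviations of paired libraries from their group means had an r from 0.000914 to 0.119 across genes. Mouse was not a term of the reported fit. LPS and CTL mice carry numbers from separate ranges and their libraries differ in depth, and these cannot be told apart from the treatment. The log2 CPM used for correlations had a prior count of 2. CPM per kb used the length of all exons of a gene.

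The 5 genes were all described. From the lists (metallothioneins, ZIP, ZnT, copper handling, glucocorticoid-responsive and S100 genes) those that passed in a contrast were named, and Mt4, S100a9 and Tsc22d3 were named after their values were seen. For each member pattern the 5 genes with the largest r were named. The members and lists were chosen with earlier results of these data known. Promoter windows were taken from RefSeq (GRCm38.p6) and coding sequences and positions from GENCODE M21.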

Additional observations from a re-analysis of the deposited data

Results flagged for a closer look

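In 3 of the 20 sets of 5 libraries, formed by 5 genes in 4 groups, 1 library lay far from the other 4 by Dixon's test with a critical value of 0.71. Chance alone gives about 1 in 20 such sets. Mt1 in tdT+ LPS dCAMs was lowest in mouse 60, at 1980 CPM against 2559 CPM or more in the other 4. Mt2 in tdT- CTL dCAMs was highest in mouse 178, at 70.7 CPM against at most 35.9 CPM in the other 4. Slc39a14 in tdT- CTL dCAMs was highest in the same library, at 9.26 CPM against at most 0.785 CPM in the other 4.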

How the results depend on the processing

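The log2 fold changes of Mt1, Mt2 and Slc39a14 with LPS kept their direction in all 126 values over the alternatives, and the call was lost in 5 of them, all for Slc39a14 in tdT+ dCAMs with 1 mouse left out. For Mt1 they ran from 1.42 to 1.92 in tdT- and from 2.04 to 2.38 in tdT+ dCAMs, for Mt2 from 3.47 to 4.02 and from 4.58 to 5.40, and for Slc39a14 from 6.39 to 9.87 and from 4.29 to 6.58. The number of the 5 genes that passed with 1 mouse left out was 3 for LPS in tdT- dCAMs, 2 to 3 for LPS in tdT+ dCAMs, 0 to 1 between the populations in CTL mice and 0 in the other comparisons. Between the populations in CTL mice it was 1 without CTL mouse 178, where Slc39a14 passed, and 1 in limma-voom without quality weights, where Slc30a1 passed both with mouse as a replicate block and without it. The unblocked limma-voom fit was chosen after seeing the data, to set the block against the same tool. Against it the block changed no call of the 5 genes, and the estimated correlation within mice was 0.0413. The calls of Slc30a1 there and of Mtf1 with LPS in tdT- dCAMs thus differed from edgeR with or without the block. The block used a single correlation for all genes, so it does not measure the pairing of any one gene. For Mt1 in LPS mice the log2 differences within mice had a mean of 0.200 and an SD of 0.160 (n = 5). The fit without a mouse term gave that difference an SE of 0.30. The difference of Mtf1 between the populations in LPS mice, -0.02, turned to 0.00390 with the letter F or M as a term, to 0.102 with thinned counts and to 0.000217, 0.000289 and 0.0874 without CTL mouse 175, CTL mouse 178 and LPS mouse 54, within a range from -0.0983 to 0.0874 with 1 mouse left out. The causes were not tested. Over all genes, the number that passed was 1907 for LPS in tdT- dCAMs (891 to 4532 over the alternatives), 979 in tdT+ dCAMs (694 to 3155), 712 between the populations in CTL mice (3 to 2245), 5 in LPS mice (1 to 137) and 209 for the difference (63 to 744), so that the shares of all genes given beside the counts depend on the fit. Between the populations in CTL mice 1352 genes passed without CTL mouse 175, and for the difference 640, 344 and 339 without CTL mice 175, 178 and 179 and 63 to 76 without any one LPS mouse. With mouse as a replicate block the 5 counts were 4523, 1571, 2245, 22 and 619, against 4532, 1570, 2070, 20 and 564 in limma-voom without it. Counts at or under 3, the floor of a library, were found in 2, 2 and 3 of 5 tdT- CTL libraries for Mtf1, Slc30a1 and Slc39a14. With all libraries thinned to the smallest total, Mtf1 still had 2 and 3 counts in tdT- CTL mice 178 and 179 against 66 to 253 in the other 18 libraries.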

Other observations

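In the CTL mice the level of Mt1 separated by the letter that opens the sample title. The 2 mice with M were at 1090 and 1215 CPM in tdT- and at 647 and 805 CPM in tdT+ libraries, and the 3 mice with F ran from 335 to 572 CPM and from 316 to 482 CPM. Mt2 ran from 22.3 to 40.2 CPM with M and from 2.76 to 12.1 CPM with F in tdT+ CTL libraries, but the letters overlapped in tdT- CTL libraries (32.2 to 70.7 and 22.0 to 35.9 CPM). In the LPS mice Mt1 overlapped between the letters, with 1901 to 2510 CPM for M and 1986 to 2282 CPM for F in tdT- and 1980 to 2764 and 2559 to 2572 CPM in tdT+ libraries. The pattern was noticed in the data and was not tested. It rests on 2 and 3 mice, and the tdT- and tdT+ libraries come from the same animals. The share of all tested genes that separate by letter in this way was not counted.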
